A study of Caenorhabditis elegans with 2 samples.

Results

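The peaks described here are the binding regions of LSY-2 on the X chromosome of Caenorhabditis elegans. They are all entries of the authors' thresholded peak list, in the ce11 build, whose chromosome is X, and there are 880 of them beside 5064 on the autosomes. LSY-2 was assayed by chromatin immunoprecipitation and sequencing in 2 biological replicates of 1 strain and 1 condition. The strain, OP367, carries unc-119(tm4063) III and the transgene wgIs367, which expresses LSY-2 with GFP and FLAG fused to its C-terminus, so both replicates measure the tagged protein from a transgene in addition to whatever the native locus makes. The animals were whole L4 larvae, male and female pooled, with no exact age given, and a whole-animal sample mixes all tissues, so a peak cannot be assigned to a cell type. Nothing in the labels names the promoter or the copy number of the transgene, and the background control library was not analysed here.

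LSY-2 is a C2H2 zinc-finger transcription factor, first known from the ASE taste neurons, whose left and right members differ, where it is needed for expression of the microRNA lsy-6. Its gene lies on X. The X chromosome of this species differs from the autosomes in several ways that bear on a map of binding: it holds few genes with germline expression, few ribosomal protein genes and many transfer RNA genes, and in hermaphrodites it is bound by the dosage compensation complex, a condensin-like assembly that lowers transcription from both X chromosomes. That complex is first recruited to a limited set of X sites, which are known to share clustered copies of a short motif with the core GCGCAGGG, and it then spreads along the chromosome.

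Sequences from the 20 strongest X peaks are shown first, as 100 bases centred on the summit, from the plus strand of the RefSeq genome sequence of ce11. They were picked because they hold words counted further on. Of the 20 windows 12 hold at least 1 of the words capitalised here and 8 hold none, among them the strongest, at serp-1.1, which is printed for that reason without capitals; 2 of the 8 have the dosage compensation core elsewhere in the peak. The first set comes from promoters. Capitals mark CGGTNACAC on either strand, or AGACGCAG on either strand in the last line. The gene named is the one whose 5′ end is nearest.
serp-1.1, chrX:15841227-15841326: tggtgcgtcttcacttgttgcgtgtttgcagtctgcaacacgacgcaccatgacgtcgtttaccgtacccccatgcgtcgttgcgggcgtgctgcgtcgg
rpl-11.2, chrX:2242930-2243029: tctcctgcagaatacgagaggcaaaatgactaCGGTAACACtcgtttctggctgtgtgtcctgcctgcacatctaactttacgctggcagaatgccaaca
glit-1, chrX:4712062-4712161: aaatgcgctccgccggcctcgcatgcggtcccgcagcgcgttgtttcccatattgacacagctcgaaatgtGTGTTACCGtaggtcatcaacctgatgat
trap-2, chrX:768219-768318: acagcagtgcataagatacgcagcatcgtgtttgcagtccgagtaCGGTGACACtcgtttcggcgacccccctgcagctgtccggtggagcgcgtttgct
T14G11.1, chrX:2688671-2688770: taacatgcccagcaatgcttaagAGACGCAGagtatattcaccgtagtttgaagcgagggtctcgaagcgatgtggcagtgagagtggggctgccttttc

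The second set comes from strong peaks away from promoters. Capitals mark the dosage compensation core GCGCAGGG and the words CGAAGGGA, TTATCCAC and AGACGCAG, all on either strand. The lines give the host gene of an intronic summit or the gene with the nearest 5′ end of an intergenic one.
intron of Y41G9A.17, chrX:2997055-2997154: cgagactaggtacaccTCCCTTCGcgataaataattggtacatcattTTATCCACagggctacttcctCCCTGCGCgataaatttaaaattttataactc
nearest F20B6.9, chrX:4209207-4209306: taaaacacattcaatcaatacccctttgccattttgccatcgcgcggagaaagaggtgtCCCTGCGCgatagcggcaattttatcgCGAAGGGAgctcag
nearest gtr-1, chrX:806630-806729: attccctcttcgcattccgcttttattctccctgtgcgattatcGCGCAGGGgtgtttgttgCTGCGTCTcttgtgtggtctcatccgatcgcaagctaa
intron of mom-1, chrX:6296507-6296606: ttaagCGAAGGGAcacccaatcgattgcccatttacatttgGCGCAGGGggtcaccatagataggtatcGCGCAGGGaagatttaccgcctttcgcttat
nearest xol-1, chrX:8036347-8036446: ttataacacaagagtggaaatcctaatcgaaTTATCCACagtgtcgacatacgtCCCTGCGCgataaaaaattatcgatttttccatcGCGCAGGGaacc

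X held 14.8% of the peaks and 17.7% of the nuclear bases. Its density was 49.7 peaks per Mb, against 61.3 over the pooled autosomes. This was not outside the autosomal range, which ran from 38.8 per Mb on V to 87.6 per Mb on III. An equal number of the strongest regions of replicate 1 gave 50.7 peaks per Mb on X and 61.1 on the autosomes, and those of replicate 2 gave 50.1 and 61.3, so the mean on X was 50.4 ± 0.439 (SD, n = 2). Comparing X with the 5 autosomes by a two-sided exact permutation test over the 6 chromosomes gave p = 0.667 (0.75 after Benjamini-Hochberg adjustment over the 9 measures compared in this way). With 6 chromosomes this test cannot go below 0.167, so none of its p-values can pass 0.05, and the comparisons below rest on sizes, ranges and the agreement of the replicates.

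X peaks were weaker. The signal, an enrichment score on the authors' scale, had a median of 101.1 on X (quartiles 76.6 and 167.1), against 118.6 on the autosomes (79.4 and 212.1). X had the lowest median of the 6 chromosomes, and V, the next, had 112.8. The ratio of the X to the autosomal median was 0.852 in the thresholded list, 0.867 in replicate 1 and 0.900 in replicate 2 (exact permutation p = 0.167, the smallest possible; adjusted 0.375). Over all regions of the pooled list, most of them below the threshold, the ratio turned to 1.09. The animals were of both sexes in unstated proportion, and copy number and background on X against the autosomes were not examined, so the ratio compares the deposited signal only. The medians differed more among promoter peaks than among the others. Promoter peaks had a median of 113.9 on X and 145.4 on the autosomes, where the lowest value was 132.6 on V. Outside promoters the medians were 94.8 and 95.6, and for intergenic peaks alone 97.3 and 101.6. Promoter peaks were also a smaller share of the peaks on X. How much of the overall gap follows from that share was not tested. X had its smallest share among the strongest peaks, with 99 of the first 1000 (9.9%, exact 95% interval 8.12% to 11.9%), 130 of the next 1000 and 135 of ranks 2001 to 3000. The share did not go on rising with rank. It was 20.1% in ranks 3001 to 4000 (17.7% to 22.7%), the highest of the 30 sets of 1000 in the pooled list, then 15.6% and 16.6% in the next 2 sets, and between 12.2% and 15.1% in the sets past rank 20000. The low share at the top was found in each replicate, with 10.1% on X among the 1000 strongest of replicate 1 and 10.3% among those of replicate 2. The value of 20.1% was not, since ranks 3001 to 4000 gave 15.7% in replicate 1 and 17.6% in replicate 2. These intervals cover counting error only, and the number of reads behind any peak is unknown because the lists hold no counts.

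**Figure D1:**
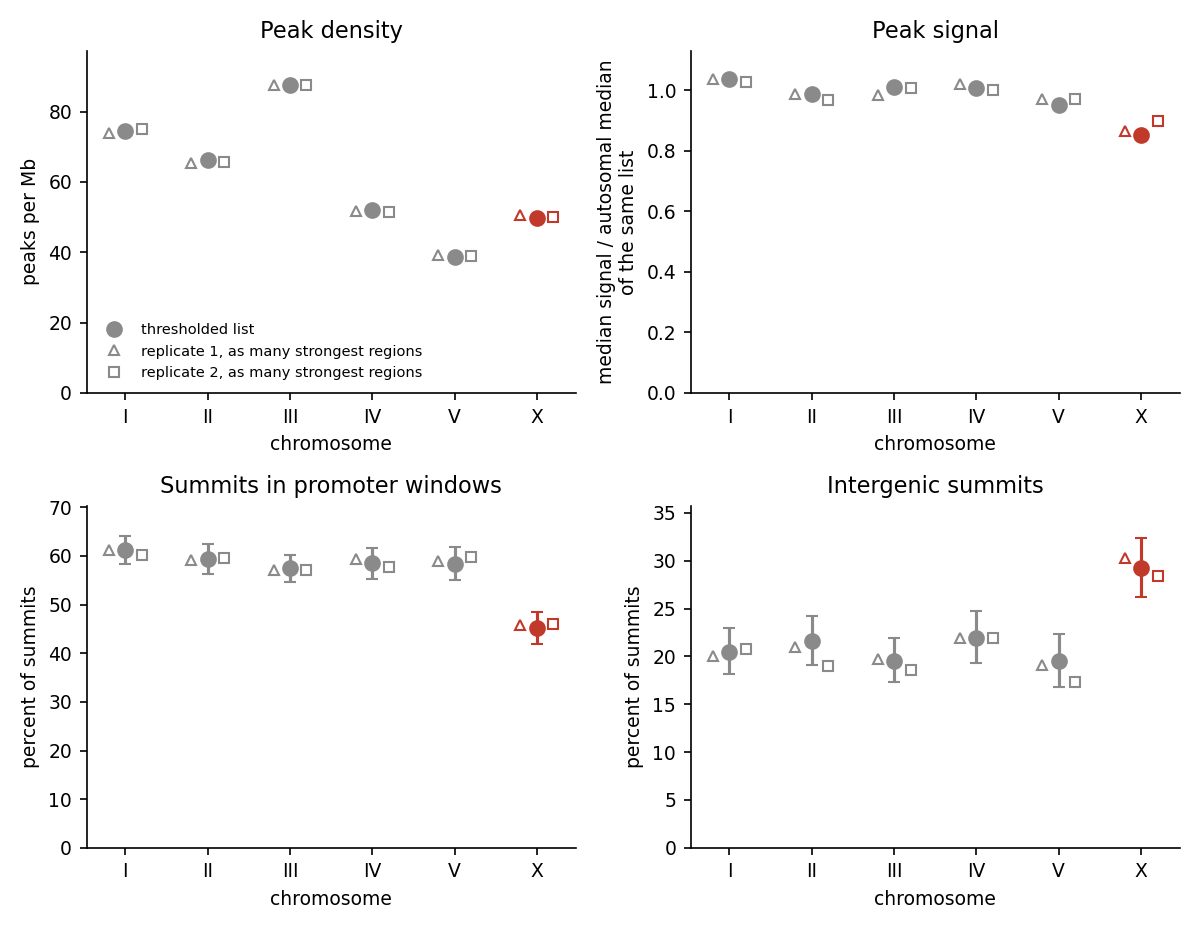
Peak density (peaks per Mb), median signal relative to the autosomal median of the same list, and the percent of summits in promoter windows and in intergenic sequence, for each chromosome. Filled points are the thresholded list with exact 95% binomial intervals where a share is shown, open triangles and squares as many of the strongest regions of replicates 1 and 2. X (red) lies inside the autosomal range for density and outside it in the other 3 panels, in both replicates.

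Fewer X summits lay in promoters. Promoter windows were set around the start of each protein-coding and microRNA transcript, reaching 1000 bp upstream of it and 200 bp into it. On X 398 of 880 did so (45.2%, exact 95% interval 41.9% to 48.6%), against 59.0% on the autosomes, whose values ran from 57.5% on III to 61.2% on I. Replicate 1 gave 45.8% and replicate 2 gave 46.0% on X, with 59.1% and 58.8% on the autosomes. Intergenic summits were more frequent, with 257 on X (29.2%, 26.2% to 32.3%) against 20.6% on the autosomes, whose highest value was 21.9% on IV. Intron summits did not stand apart, at 15.8% on X (139 summits) against 14.1%, within the autosomal range of 12.6% to 16.6%. The exact permutation p was 0.167 for promoters and for intergenic summits and 0.5 for introns (adjusted 0.375, 0.375 and 0.75). Over all pooled regions the promoter share was 29.2% on X and 35.2% on the autosomes, and the intron share, 26.6% on X, fell below the autosomal 31.3%.

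The makeup of the chromosome moves with these shares. Intergenic bases are 29.2% of X and 20.03% of the autosomes, so the share of intergenic summits was 1.00 times the share of intergenic bases on X and 1.03 times on the autosomes. Promoter windows cover 22.2% of X and 27.2% of the autosomes, and the promoter share of summits was 2.04 times the share of bases on X and 2.17 times on the autosomes. Per Mb of promoter window X had 101.4 summits, between 75.1 on V and 205.6 on III. Windows upstream of 5′ ends on both strands, where adjacent genes diverge, made up 2.74% of promoter bases on X and between 6.89% on IV and 7.81% on III. Such divergent windows held 30 of the 398 promoter summits of X (7.54%, 5.14% to 10.6%), against 26.5% of those on the autosomes (lowest 22.7%, on II). Divergent summits had a median signal of 168.9 on X and 231.1 on the autosomes, and other promoter summits 109.8 and 121.8. Per Mb of divergent window X had 279.1 summits, against 483.3 over the pooled autosomes, which ran from 256.8 on V to 792.9 on III. Per Mb of other promoter window X had 96.4, against 105.3, with a range from 60.8 on V to 155.9 on III. Summits in divergent promoters were thus a smaller share of promoter summits on X, where such windows are scarcer. Their density per Mb of divergent window was also below the pooled autosomal value, though inside the autosomal range. Divergent and other promoter summits both had a lower median signal on X. How much of the difference in promoter share and signal goes with gene arrangement was not tested.

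The promoter share of X was below that of the autosomes in each of the first 6 sets of 1000 peaks by rank; over the 30 sets of the pooled list it was above it in 4. Among the 1000 strongest peaks of the pooled list, which holds 30000 regions and whose strongest are the thresholded peaks, 60.6% of X summits and 83.0% of autosomal summits lay in promoters. In ranks 5001 to 6000 these shares were 35.5% and 43.2%. The contrast was sharpest at the very top. Of the 20 strongest X peaks 8 were promoter summits, 10 were intergenic and 2 intronic, whereas 96 of the 100 peaks formed by the 20 strongest of each autosome were promoter summits. Among the 100 strongest X peaks 61 lay in promoters, against 84 to 90 on each autosome.

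**Figure D2:**
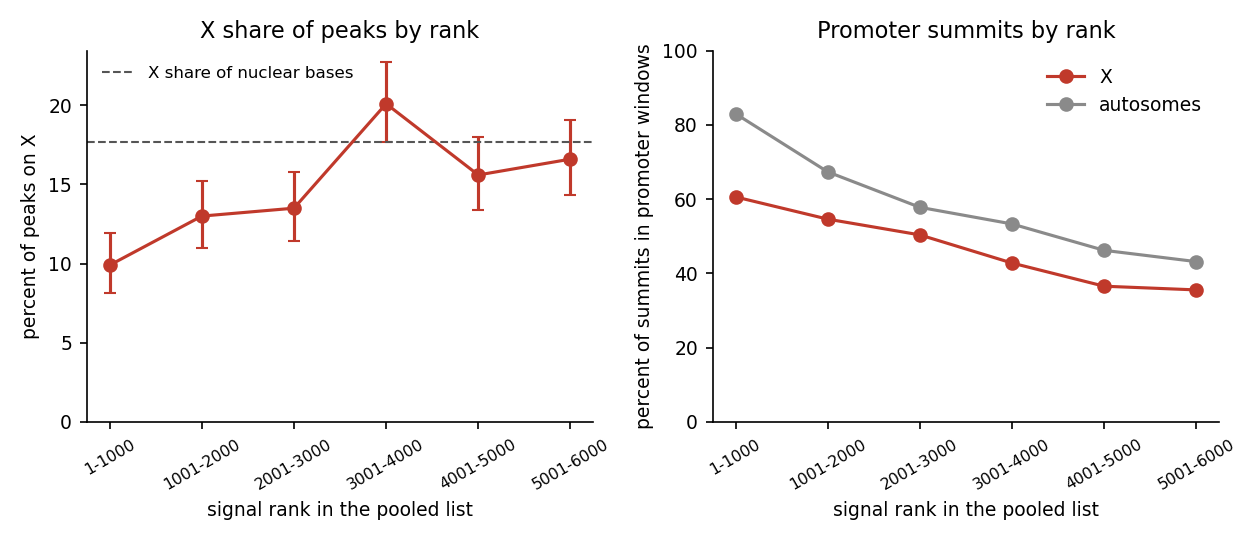
Left, the percent of peaks on X in successive sets of 1000 by signal rank, with exact 95% binomial intervals; the dashed line is the X share of nuclear bases. Right, the percent of summits in promoter windows at the same ranks on X (red) and the autosomes (grey). X has 9.9% of the strongest 1000, 20.1% of ranks 3001 to 4000 and 15.6% and 16.6% of the last 2 sets shown, and its promoter share lies below the autosomal one in these 6 sets.

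The 5 strongest X peaks were promoter peaks. The strongest had its summit 295 bp upstream of serp-1.1, with a signal of 5087 in the thresholded list, 2901 in replicate 1 and 2194 in replicate 2, and it ranked 18 over all chromosomes. The second lay 362 bp upstream of rpl-11.2, a gene for a large-subunit ribosomal protein, with 4909, 2924 and 2007. A wide step followed. The third, in the divergent promoter of glit-1, a gliotactin homologue, and dnj-14, a DnaJ-domain protein of synaptic vesicles, reached 1918 in the thresholded list, 1100 in replicate 1 and 825.0 in replicate 2. The fourth lay between trap-2, a subunit of the translocon-associated protein complex, and ile-2, a lectin of the secretory pathway, at 1536, 868 and 674. T14G11.1 followed with 1395, 818 and 580. Further down, promoter peaks among the 20 strongest stood at R08E3.3 (1173), at nspc-17, a nematode-specific peptide gene (971), and at puf-9, a Pumilio-family RNA-binding protein (863). In both replicates the serp-1.1 and rpl-11.2 peaks were the strongest pair of these 20.

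The other 12 of the 20 strongest X peaks lay away from promoters, and 8 of them held the dosage compensation core within the peak. The strongest of these was intergenic, with its summit at chrX:11094181, 4005 bp past the nearest 5′ end, that of W02H3.3, and a signal of 1260 in the thresholded list, 692 in replicate 1 and 562 in replicate 2. Next came a summit in an intron of Y41G9A.17 with 1220, 681 and 524. Intergenic summits nearest to F19H6.5 (1039), F20B6.9 (1004), F22H10.2 (1002) and gtr-1 (898), and a summit in an intron of mom-1, the Porcupine homologue needed for Wnt secretion (881), followed. The last lay 4916 bp upstream of xol-1, the switch gene that sets sex and dosage compensation early in development, with 861, 469 and 395. The 4 without the core in the peak were nearest to ZK899.6 (1180), K02D3.1 (982), F55G7.5 (944) and T27A8.7 (782), and the one near ZK899.6 held both CGAAGGGA and TTATCCAC at its summit. The promoter peak at nspc-17 also held the core. Nearest 5′ end here is a position and names no target.

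**Figure D3:**
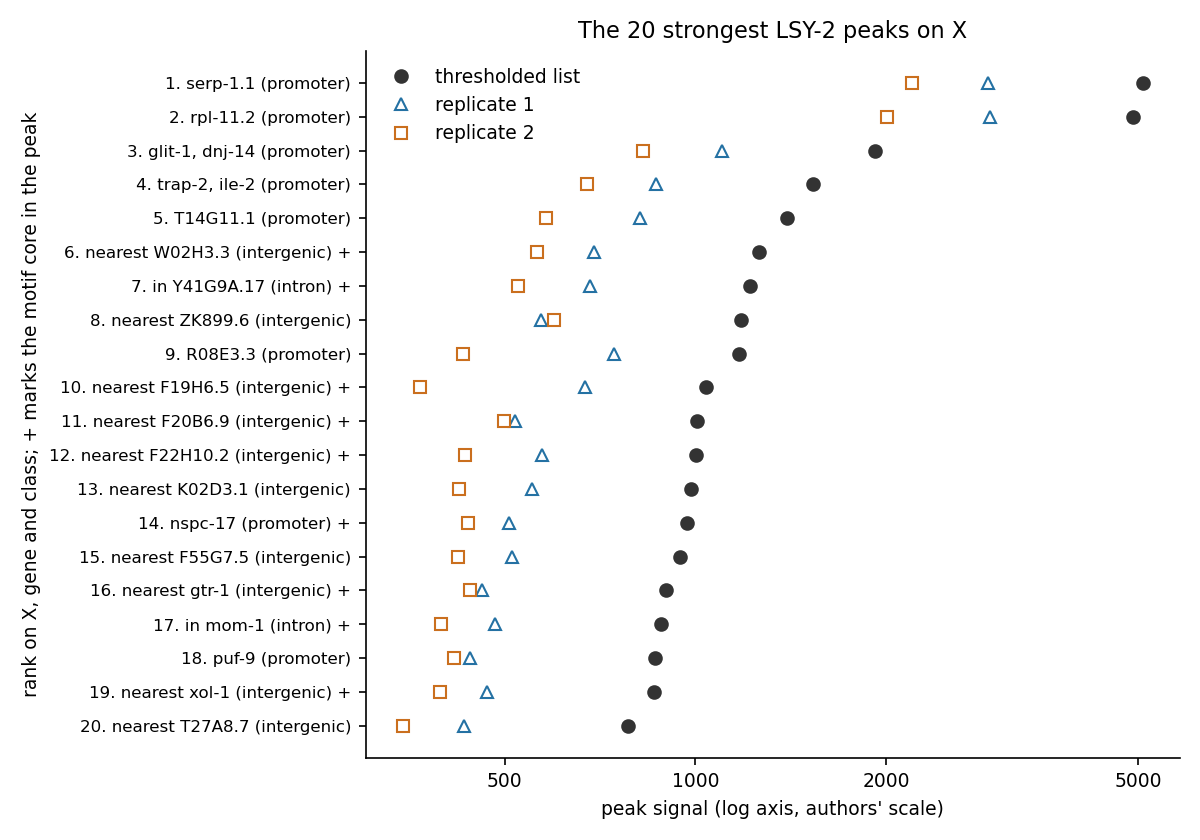
Signal of the 20 strongest X peaks on a log axis, in the thresholded list (filled circles) and at the matching summit in replicate 1 (triangles) and replicate 2 (squares). Labels give the rank on X, the promoter gene, the host gene or the gene with the nearest 5′ end, and the class; + marks peaks with the motif core. The 9 marked peaks lie at ranks 6 to 19, and each replicate found all 20.

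The core was then counted over all peaks and over the whole genome; this search was chosen after the strongest X peaks had been seen, so its counts are a description. GCGCAGGG, searched on both strands, occurs 81 times on X and 233 times on the autosomes, or 4.57 and 2.82 times per Mb. Of the X copies 26 lay within a thresholded peak (32.1%, exact 95% interval 22.2% to 43.4%), against 8 of the autosomal copies (3.43%, 1.49% to 6.65%). In the whole pooled list the counts were 33 of 81 and 30 of 233. In the 100 bases at the summit the core stood in 15 of 880 X peaks (1.70%, 0.957% to 2.80%) and in 2 of 5064 autosomal peaks (0.0395%, 0.00478% to 0.143%). Flanking windows of the same length, 200 bp from the summit, held it at 0.114% of X peaks and 0.0197% of autosomal peaks, and of all 100-base windows tiling the genome 0.0406% on X and 0.0257% on the autosomes held it. With the stronger 50% of the peaks 3.33% of X summits held it, and over all pooled regions 0.398%. Replicate 1 gave 1.89% of X summits and 0.0396% of autosomal ones, and replicate 2 gave 1.69% and 0.0395%.

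Taken over the whole peak, 25 X peaks in 21 intervals held the core, since some intervals carry more than 1 summit. These peaks had a median signal of 455.7 (quartiles 137.8 and 897.5), with 333.0 in replicate 1 and 218.4 in replicate 2, against 99.9 for the other 855 X peaks. They ranged from 1260 down to 69.5, and 16 of the 25 were in the strongest 25% of X peaks. Of the 25, 14 were intergenic, 6 lay in promoters, 4 in introns and 1 in a coding exon, that of the polyketide synthase gene pks-1. The promoter peaks among them included ins-39, an insulin-like peptide gene, at 643.9. The copy nearest the summit lay at a median of 22 bp from it, and in 16 of the 25 within 50 bp. Each of the 25 had a summit within 200 bp in both replicates, and 22 of the 25 were strong enough in both to fall within a replicate list cut to the length of the thresholded list. A second summit of an interval can take its neighbour's replicate value. Both summits in the mom-1 intron carry 483.1 in replicate 1, and both at nspc-17 carry 507.1. The replicate counts and medians are therefore not over 25 separate regions. Only 9 autosomal peaks held the core (0.178% of 5064, against 2.84% of X peaks), with a median of 135.6. None of the 100 peaks formed by the 20 strongest of each autosome held it, while 9 of the 20 strongest X peaks did.

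The words beside the core were read from the windows printed above. Those windows are included in the counts. The X shares, and the place of the words among the strongest X peaks, therefore follow in part from this choice. CGAAGGGA stood at 14 X summits (1.59%) and 10 autosomal ones (0.197%), and in the strongest 25% of X summits outside promoters at 7 of 121 (5.79%, 2.36% to 11.6%). TTATCCAC stood at 6 X summits (0.682%) and 3 autosomal ones (0.0592%), and all 6 were in the strongest 25% of X peaks. Both words are about as common per Mb on X as on the autosomes, at 11.5 and 10.2 for the first and 23.9 and 23.3 for the second. Of the X copies 18 of 203 and 15 of 424 lay within a thresholded peak, against 32 of 842 and 23 of 1925 on the autosomes.

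Promoter words behaved differently. CGGTNACAC, read from the rpl-11.2, glit-1 and trap-2 windows, stood at 4 of the 100 promoter summits in the strongest 25% on X (4.0%, exact 95% interval 1.101% to 9.93%) and at 29 of 748 on the autosomes (3.88%, 2.61% to 5.52%). Outside promoters it stood at 0 of 482 X summits, an upper limit of 0.622% (3 counts), and in tiled windows at 0.0858% on X and 0.0757% on the autosomes. The fourth X peak with it in that set lay at fubl-3. The other X peaks of that set are those it was read from, so its X share follows in part from that choice. The 6-base ACGGTA stood in the strongest 25% at 5 of the 100 X promoter summits (1.64% to 11.3%; flanks 2 of 100) and at 13.5% of autosomal ones (11.1% to 16.2%; flanks 2.27%). Over all promoter summits it stood at 2.26% on X (flanks 2.76%) and 7.39% on the autosomes (flanks 2.68%). AGACGCAG, an 8-base word frequent under LSY-2 summits, stood at 45 X summits (5.11%, 3.75% to 6.78%) against 10.03% of autosomal ones, whose lowest value was 9.07% on II; flanks had 0.341% and 0.474%. Replicate 1 gave 4.57% on X and replicate 2 gave 4.40%, against 9.47% and 9.08% (exact permutation p = 0.167, adjusted 0.375). Over all pooled regions the shares were 1.46% on X and 3.18% on the autosomes. In promoters it stood at 6.53% of X summits and 10.2% of autosomal ones, but in the strongest 25% of promoter summits at 12 of 100 on X (6.36% to 20.02%) and 9.36% on the autosomes (7.37% to 11.7%), intervals that overlap. In the strongest 25% outside promoters the shares were 8.26% on X (4.03% to 14.7%) and 16.2% on the autosomes (13.1% to 19.6%). The word itself is rarer on X, with 29.4 copies per Mb against 64.1, and the share of its copies that lay in a thresholded peak was 15.7% on X (82 of 521) and 15.8% on the autosomes (838 of 5291).

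GAGAGA, a GA-repeat word, stood at 22.5% of X summits (19.8% to 25.4%) and 26.2% of autosomal ones, inside the autosomal range of 21.8% to 28.9% (exact permutation p = 0.667, adjusted 0.75); flanks had 7.5% and 6.52%. With the stronger 50% of the peaks the order turned, to 28.9% on X and 27.1% on the autosomes. Its place differed. In promoters it stood at 27.4% of X summits (23.1% to 32.1%) and 22.6% of autosomal ones (21.1% to 24.2%), and in the strongest 25% of promoter summits at 34 of 100 on X (24.8% to 44.2%) and at 14.8% on the autosomes (12.4% to 17.6%). Outside promoters the order was the opposite, at 18.5% on X (15.1% to 22.2%) and 31.4% on the autosomes (29.4% to 33.4%). Summit windows on X were 44.7% G and C, with flanks at 34.8%, and autosomal ones 43.4% with flanks at 35.1%.

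**Figure D4:**
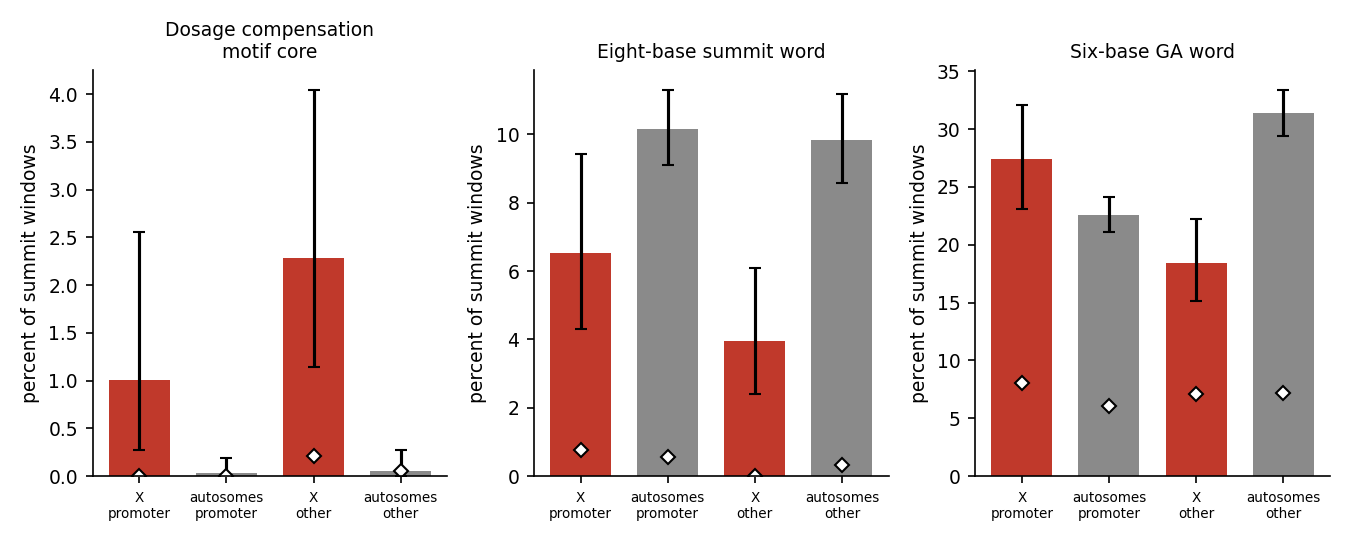
Percent of 100-base summit windows that hold the dosage compensation motif core, the 8-base word or the 6-base GA word, on X (red) and the autosomes (grey), in promoters and elsewhere. Bars are shares with exact 95% binomial intervals, and diamonds are the flanking windows. The core reaches 2.28% at X summits outside promoters and 0.0482% at autosomal ones, the 8-base word is lower on X in both classes when summits of every strength are counted, and the GA word is higher on X in promoters and lower elsewhere.

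Transfer RNA genes are concentrated on X, which has 276 of the 612 nuclear copies, or 15.6 per Mb against 4.07 on the autosomes. A summit lay within 200 bp of 78 of them (28.3%, exact 95% interval 23.03% to 34.0%), near the 30.6% over all chromosomes and inside the autosomal range of 17.9% on V to 50% on III. Replicate 1 gave 27.5% on X and replicate 2 gave 29.7% (exact permutation p = 0.833, adjusted 0.833), and the stronger 50% of the peaks gave 14.5% on X and 16.4% on the autosomes. The share of marked tRNA genes on X was thus inside the autosomal range, but the 71 X summits near them made up 8.07% of X peaks, against 1.92% of autosomal peaks. Their median signal was 119.4, with 72.3 in replicate 1 and 51.3 in replicate 2, and the highest was 337.5, so they contributed none of the 20 strongest X peaks. Of the X tRNA genes that lie inside a protein-coding gene 32 of 96 had a summit (33.3%), and of the others 46 of 180 (25.6%). Many of these summits, 29 of 71, fell in the class of exons of noncoding genes, which held 68 X summits (7.73%) against 3.24% on the autosomes. Near-identical tRNA copies can share reads, and the sources used here do not say how the authors placed such reads, so single tRNA genes are not named.

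Fewer X genes had a promoter summit. Of the 2731 protein-coding genes on X 385 had at least 1 (14.1%, exact 95% interval 12.8% to 15.5%), against 20.3% on the autosomes and 19.5% over all chromosomes; V was lower, at 11.2%, and III highest, at 31.7%. Both replicates gave 14.5% on X (exact permutation p = 0.667, adjusted 0.75). The share was 7.95% on X for the stronger 50% of the peaks and 29.7% for all pooled regions, against 14.2% and 35.9% on the autosomes. Among the lists of genes examined, the 9 X members of the heterochronic pathway, which times larval cell fates, had 6 with a promoter summit, against the 14.1% of X genes; the autosomal members had 12 of 15. The strongest was puf-9, described above. The GW182-related microRNA cofactor ain-1 had 307.3, with 183.1 in replicate 1 and 122.8 in replicate 2, 983 bp upstream of its start. The nuclear protein lin-14, which sets early larval fates, had 118.4, with 59.5 and 55.2. The casein kinase gene kin-20 had 96.8, with 56.7 and 54.3, and the Argonaute gene alg-1 75.2, with 52.9 and 24.1. The let-7 microRNA gene had 61.9, with 44.5 and 16.9, just above the threshold. The kin-20, alg-1 and let-7 summits lay inside the annotated gene, upstream of a transcript start within it. Windows were set at every transcript start, so a gene with several starts has several windows. No summit stood in the promoter windows of mir-84, a let-7 family microRNA, hbl-1, a zinc-finger regulator of larval fates, or daf-12, a nuclear hormone receptor.

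The other lists are given beside the share of all protein-coding genes with a promoter summit, 14.1% on X and 20.3% on the autosomes. None of the 6 X genes of the X-signal, sex determination and dosage compensation list (xol-1, sex-1, fox-1, ceh-39, sdc-1 and sdc-2) had a promoter summit, against 9 of 22 autosomal members. None of the 27 X homeobox genes had one (0%, which allows a share of up to 11.1%), against 13 of 71 on the autosomes (18.3%). Chromatin modifiers had 3 of 17 on X, namely sir-2.2, a sirtuin (195.3), chd-3, a chromatin remodeller (77.0), and utx-1, a histone demethylase (66.0), against 54 of 98 on the autosomes (55.1%). Of the cytosolic ribosomal protein genes only 2 lie on X, and 1, rpl-11.2, had a summit, against 72 of 81 on the autosomes. Muscle structure genes had 1 of 16, act-4, an actin (146.5), against 12 of 49 on the autosomes. Cuticle collagens had 1 of 30, col-185 (147.6), against 10 of 148. Neuropeptide genes had 1 of 37, ins-39, amine and peptide receptors 1 of 48, npr-4 (84.0), and ligand-gated channels 2 of 28, glr-6 (376.6) and glr-8 (85.2). Potassium channels (21 genes), vitellogenins (5) and ASE asymmetry genes (5) had none, against 4 of 53, 0 of 1 and 5 of 27 on the autosomes. In the neuropeptide, receptor, channel and collagen lists the autosomal share was thus also below that of all autosomal genes. A count of 0 allows up to 14.3% of 21 genes, 50% of 6 and 60% of 5, so these lists cannot be told from the 14.1% of all X genes, and the 3 of 17 chromatin modifiers (17.6%) lie near it.

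In another 3 lists the share on X was above 14.1%. Nuclear hormone receptors had 9 of 27 on X (33.3%), led by nhr-1 (279.6), nhr-40 (241.6), nhr-48 (188.9) and nhr-35 (175.0), against 38 of 247 on the autosomes (15.4%). The nhr-40 summit lay inside the gene, upstream of a transcript start within it. Synaptic and vesicle genes had 3 of 9, dnj-14, syd-2, a presynaptic scaffold (154.4), and unc-18, a regulator of vesicle fusion (88.0), against 21 of 40 on the autosomes. Vulval EGF, Ras and Notch signalling genes had 4 of 14 (28.6%), eor-2 (199.0), the adaptor sem-5 (94.4), the Notch co-ligand osm-11 (83.5) and the presenilin sel-12 (79.2), against 27.5% on the autosomes. With 9 to 27 X members, the exact 95% intervals were 16.5% to 53.96% for the receptors, 7.49% to 70.1% for the synaptic genes and 8.39% to 58.1% for the signalling genes, and the last 2 hold the 14.1%. No list was tested.

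Most X peaks had a match in both replicates. The thresholded list was itself derived from both replicates, by a cut on reproducibility between them (IDR). Matches in the full replicate lists are therefore not independent evidence. Of the 880, 858 had a summit within 200 bp in both replicate lists (97.5%, against 98.04% of autosomal peaks), 13 had none in replicate 1 and 9 none in replicate 2. A summit that shares an interval with a stronger one can be matched to its neighbour's summit in a replicate. In 622 (70.7%) the matching summit fell within both replicate lists cut to that length, against 73.6% on the autosomes. The log2 ratio of replicate 1 to replicate 2 signal had a median of 0.49 and an SD of 0.64 over X peaks, and of 0.51 and 0.61 over autosomal peaks, so X peaks did not shift between replicates relative to the rest. Across X peaks, which share their libraries, the rank correlation of the replicate signals was 0.702, against 0.803 across autosomal peaks, as a description.

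**Figure D5:**
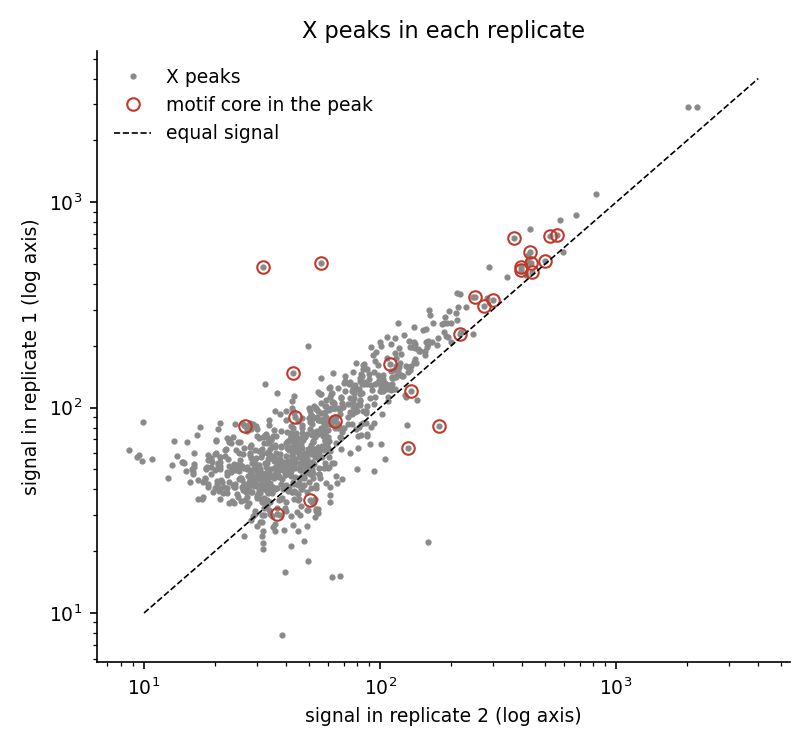
Signal of the X peaks in replicate 1 against replicate 2, both on log axes, for the 858 peaks with a summit within 200 bp in each. Red circles mark peaks with the motif core, and the dashed line is equal signal. Most points lie above the line, with a median log2 ratio of 0.49, and the strongest circled peaks lie among the strongest X peaks of both replicates.

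Peaks were spread along the whole of X. By bins of 1 Mb the most lay from 13 to 14 Mb (67 peaks, of which 34 were in promoters), 4 to 5 Mb (66) and 8 to 9 Mb (64), and the fewest from 9 to 10 Mb (25). The longest stretch without a summit ran for 264896 bp from chrX:59290 to chrX:324186. Peaks with the core were found in 13 of the 18 bins. The weakest 3 X peaks inside the threshold had signals of 59.9, 59.9 and 59.9, nearest to mir-62, R03G5.6 and slc-17.1, and the strongest 3 outside it had 59.9, 59.9 and 59.8, nearest to sli-1, dyn-1 and cysl-1, so the edge of the list marks no step in signal.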

How the data were processed

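The deposited lists give, per region, an interval, a summit and a signal value on the authors' scale, which ranks the regions. The authors' names for the lists give the cut of the thresholded list as IDR, a measure of reproducibility between replicates. They give the pooled list as peaks and background. The aligner, the peak caller and the value of the cut were not given in the sources used here. The lists used were the thresholded ce11 and ce10 lists, the pooled ce11 list and 1 ce11 list per replicate, and the thresholded peaks were the strongest of the 30000 pooled regions. Read counts were not analysed here, so depth is unknown and the 95% intervals (exact, Clopper-Pearson) cover counting of peaks or genes only. Summits were placed in ce11 with Ensembl release 115 genes, each in a single class, with promoter windows taking precedence over exons (UTR, coding, then noncoding), introns and intergenic sequence, and sequence came from the RefSeq assembly of that build. Replicate densities, shares and median signals per chromosome come from the strongest regions of each replicate list, cut to the length of the thresholded list. Replicate signals of single peaks, and medians over such peaks, come from the nearest summit within 200 bp in the full replicate list. Chromosomes were compared by an exact permutation test (Python 3, SciPy); 9 measures were compared. Assignment of summits to classes, 5′ ends and tRNA genes was tested on drawn positions.

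The X members and all lists and words were chosen with earlier results of these data known. Named genes are those at the 20 strongest X peaks, all X members of the heterochronic and the sex determination lists, and at most the 4 strongest X members of each other list; pks-1 and fubl-3 were named after their values were seen, and so were the words GCGCAGGG, CGAAGGGA, TTATCCAC, ACGGTA and CGGTNACAC. Of the listed names erp-1 and nsy-5 had no match.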

Additional observations from a re-analysis of the deposited data

How the results depend on the processing

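With the stronger 50% of the peaks, X had 0.642 times the autosomal density and 0.937 times the median signal; 54.7% of its summits were in promoters (autosomes 69.8%), 10.6% in introns and 26.7% intergenic, 7.95% of X genes and 14.5% of X tRNA genes had a summit, and AGACGCAG stood at 6.67%, GCGCAGGG at 3.33% and GAGAGA at 28.9% of X summits. The last of these turned in direction (autosomes 27.1%). With all pooled regions the density ratio was 0.826 and the median signal ratio 1.09, above 1 and so turned in direction; the promoter share was 29.2% (autosomes 35.2%), the intron share 26.6%, now below the autosomal 31.3%, the gene share 29.7%, the tRNA share 41.3%, and the words stood at 1.46%, 0.398% and 11.97% in the same order. The cause of these turns was not tested.

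From 1 replicate alone, the density ratio was 0.817 to 0.829, the median signal ratio 0.867 to 0.900, the promoter share 45.8% to 46.0%, the intron share 14.5% to 15.8%, the intergenic share 28.4% to 30.3%, the gene share 14.5% in both, the tRNA share 27.5% to 29.7%, AGACGCAG 4.40% to 4.57%, GAGAGA 21.7% to 22.4% and GCGCAGGG 1.69% to 1.89%. With 1 summit per interval the promoter share was 45.5%. Promoter windows of 500 and 2000 bp gave promoter shares of 34.3% and 58.8% and gene shares of 11.2% and 17.7%, and giving a summit to its nearest gene alone gave 12.9%. Summit windows of 200 bp held AGACGCAG at 7.5%, GAGAGA at 36.7% and GCGCAGGG at 2.39%, and a distance of 500 bp gave 33.7% of tRNA genes. Alternatives added after seeing the data left out the peaks with the motif core (density ratio 0.788, promoter share 45.8%, gene share 13.9%) or those near tRNA genes (0.759, 47.7% and 13.7%). Of the 73 values under an alternative, 27 moved by no more than 1 SD between the replicates, 43 moved by more and 3 turned in direction. This SD rests on 2 replicates. For the gene share it was 0, so any change there counted as a move. No paired analysis was possible because there is 1 group.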

Other observations

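The gene lsy-2 itself lies on X, at chrX:2089704-2093256 in ce11. No thresholded peak lay within 20000 bp of it. The nearest X peak was 51158 bp away, with a signal of 76.7. The pooled list and each replicate list had 1 region within 20000 bp of lsy-2, with signals of 14.6, 8.41 and 5.59.

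Few X microRNA genes had a summit within 200 bp, 3 of 74 (4.05%), against 14 of 187 on the autosomes (7.49%). Of the X snoRNA genes 4 of 33 had one (12.1%), against 26.5% on the autosomes, and of X lincRNA genes 9 of 38 (23.7%), against 18.6%. The strongest microRNA promoter peak of X, at 404.3, lay upstream of mir-54, mir-55 and mir-56, inside the span of F09A5.3, and was picked after its value was seen.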
